A study of Rattus norvegicus with 20 samples.

Results

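The interferon response genes described here were 9 genes: Ifit3, Ifit2, Oas1a, Mx1, Mx2, Isg15, Irf7, Irf1 and Igtp. They were taken by name, as the non-control rows of rat expression arrays whose gene name equalled one of the 9. These rows held 12 probes, and all 9 genes passed the filter on dim probes, which left 13597 genes in all. A probe passed this filter with a signal well above background on 4 or more arrays, and 7 of the 9 genes were above background on all 20 arrays. Ifit3 was above background on 17 arrays and Oas1a on 18, with at least 2 arrays in each group.

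Oesophagus was taken from Wistar rats in 5 groups of 4 arrays, and the study's design text gives 4 animals per group. 4 groups had reflux oesophagitis induced by surgery: the low-dose STW5 group (0.5 ml/kg), the high-dose STW5 group (2 ml/kg), the omeprazole group (30 mg/kg) and the untreated group, which had surgery and no drug. The sham group had a sham operation. STW5 is a herbal preparation used for functional stomach complaints and omeprazole blocks the gastric proton pump. Dosing began 7 days ahead of the operation and went on for 10 days afterwards, so every drug group was dosed before the injury. The tissue was whole oesophagus RNA, in which fewer cells of a type and less RNA per cell cannot be told apart. The animals' age is not given in the sources used here.

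Interferons are secreted signals that cells make when they sense foreign or misplaced nucleic acid, or that T and NK cells release. Type I interferons act through the Ifnar receptor and the kinases Jak1 and Tyk2, and their target genes carry the interferon-stimulated response element. Interferon gamma acts through its own receptor with Jak1 and Jak2, and its target genes carry the gamma-activated site. Ifit3, Ifit2, Oas1a, Mx1, Mx2 and Isg15 are antiviral effectors of the first branch, Irf7 amplifies it, and Irf1 and Igtp are classic targets of interferon gamma.

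The promoters show how these 2 response elements lie in the 9 genes. RefSeq promoter windows of rat build GRCr8, from 250 bases before to 50 after each gene's start, were held for 6 of the 9 genes, the others being Ifit2, Mx2 and Isg15. Each stretch printed lies before the start that this promoter table uses, is written 5′ to 3′ along the gene's own strand, and has matches in capitals. The whole annotated span of a gene can begin further upstream: all 80 bases shown for Irf7 and 43 of the 234 shown for Oas1a lie inside it. The letters searched, on both strands, were GAAA and GAAA with any 2 bases between them for the first element, and TTC and GAA with any 3 bases between them for the second. The second reads the same on both strands.
Ifit3, chr1:241527247-241527325, + strand: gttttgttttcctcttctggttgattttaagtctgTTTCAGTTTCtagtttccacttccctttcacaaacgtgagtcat
Irf7, chr1:205800048-205800127, - strand: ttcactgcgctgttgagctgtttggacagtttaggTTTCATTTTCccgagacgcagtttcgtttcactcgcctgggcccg
Oas1a, chr12:41330232-41330465, + strand: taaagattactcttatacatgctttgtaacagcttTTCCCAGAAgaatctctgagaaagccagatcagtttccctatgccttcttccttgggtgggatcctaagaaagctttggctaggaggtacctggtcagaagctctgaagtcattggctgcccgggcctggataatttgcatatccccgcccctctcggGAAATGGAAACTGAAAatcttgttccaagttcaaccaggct
Irf1, chr10:38417758-38417836, + strand: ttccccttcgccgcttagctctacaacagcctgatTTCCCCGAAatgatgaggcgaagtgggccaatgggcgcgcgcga
Igtp, chr10:42874898-42874988, + strand: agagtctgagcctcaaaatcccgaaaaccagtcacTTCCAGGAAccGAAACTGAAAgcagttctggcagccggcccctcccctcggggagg
The first element was found in 4 of the 6 windows (Ifit3, Irf7, Oas1a and Igtp), against 3.92% of all 33469 promoters of this length. Oas1a held 2 overlapping matches. The second was found in 3 of the 6 windows (Oas1a, Irf1 and Igtp), against 8.87% of all promoters. Mx1 held neither in its window. Of the 100 bases just before the Mx1 start used, 93 lie inside its whole annotated span. A match is a description of the letters and not of binding.

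Levels are given as log2 array signal minus the log2 75th percentile of the same array, so that 0 stands for the 75th percentile. The 75th percentile lay between 563 and 1078 signal units, and 61.5% to 70.5% of probes were well above background on an array. Low-dose replicates 1 and 2 differed little more than duplicate spots within an array (1.39 times, against 2.79 times or more for other pairs of a group). They were counted as 1 sample, which left 3 low-dose samples and 19 in all. Sham replicate 2 was closest to omeprazole replicate 2 (2.29 times the spread of duplicate spots) and 5.05 times or more from the other sham arrays. By this measure it was not the sham array farthest from its group, as sham replicate 1 was 6.36 times or more from the others. Without sham replicate 2, the same 5 of the 9 genes were called in untreated against sham, and values without it are given where they moved. All 9 squamous epithelium markers and all 10 striated muscle markers measured were above background on every array.

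2 features of the deposit bear on every result. The first is the slide: the sham arrays lay on slide 1, the low-dose and untreated arrays on slide 2, and the high-dose and omeprazole arrays on slide 3. Low-dose STW5 against untreated, and high-dose STW5 against omeprazole, are comparisons within 1 slide. In every other comparison slide and group cannot be told apart. The second is the dose: the 8 STW5 columns of the deposited value table hold the same values as the scanner files of the other dose, replicate by replicate. The sample titles also put the low dose in group 4 and the high dose in group 3, whereas the design text numbers these doses the other way round. Doses here follow the titles of the samples that hold the scanner files. If the value table's labels are the right ones, low and high dose change places in all values given here.

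Untreated oesophagitis was first compared with sham surgery, which sets tissue with induced reflux beside tissue without it. 5 of the 9 genes rose in untreated tissue: Ifit3, Oas1a, Isg15, Mx1 and Irf1, the first 3 by more than 2 log2 units. By limma none fell, also at an unadjusted p under 0.05. Among all 13597 genes, 15.0% rose and 17.9% fell in this comparison. The median difference over the 9 genes was 1.44 on the log2 scale, beside -0.08 over all genes. Tests were limma's moderated test over all 5 groups with Benjamini-Hochberg adjustment over all genes, and a gene was called at an adjusted p under 0.05.

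Ifit3 encodes a tetratricopeptide protein that works with its relatives against viral RNA. Its log2 levels were 0.45, -1.26, -0.71 and 0.41 in untreated tissue, against -5.60, -1.79, -5.77 and -5.50 in sham tissue. The untreated arrays all lay above the sham arrays, and sham replicate 2 was far above its 3 neighbours. Ifit3 rose by 4.39 ± 0.97 log2 units (SE; adjusted p = 0.00308), by 5.35 without sham replicate 2 (adjusted p = 0.000465) and by 2.66 with normexp background correction (adjusted p = 0.00221). In the drug groups the levels were -5.99, -6.10, -4.83 and -3.58 at the low dose, -3.45, -1.29, -1.40 and -0.30 at the high dose and -5.25, -1.82, -1.51 and -4.18 with omeprazole. Both arrays of the near-identical low-dose pair were not well above background, and omeprazole arrays split into 2 high and 2 low values.

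Oas1a encodes a synthetase that makes oligoadenylates when it meets double-stranded RNA, which switches on RNase L. Its log2 levels were 0.08, -1.76, 1.66 and -0.09 in untreated tissue, against -5.13, -2.00, -4.93 and -3.18 in sham tissue. The groups did not overlap, and the 4 untreated values themselves spanned more than 3 units. Oas1a rose by 3.78 ± 0.79 log2 units (adjusted p = 0.00218), by 4.39 without sham replicate 2 (adjusted p = 0.000813) and by 2.53 with normexp correction (adjusted p = 0.000854). The drug groups read -6.18, -6.22, -3.58 and -3.11 at the low dose, -2.36, -2.18, -1.85 and -1.43 at the high dose and -3.87, -2.32, -2.10 and -3.33 with omeprazole. The low-dose pair was again not well above background, and the high-dose arrays lay within a single unit of each other. The rat has several Oas1 genes, and whether this probe also binds their RNA was not tested.

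Isg15 encodes a ubiquitin-like protein that is joined to other proteins and is also secreted. It reached 2.90, 0.71, 0.11 and 2.11 in untreated tissue, against -1.63, 0.25, -2.08 and -0.96 in sham tissue. Untreated replicate 3 overlapped with sham replicate 2, the highest sham array. Isg15 rose by 2.56 ± 0.67 log2 units (adjusted p = 0.00872), and by 3.01 without sham replicate 2. Levels were -3.23, -3.29, -1.67 and -1.19 at the low dose, -0.42, 0.38, 0.24 and 1.60 at the high dose and -1.64, 0.05, 0.18 and -1.28 with omeprazole. The omeprazole arrays split as they did for Ifit3, with replicates 2 and 3 higher than 1 and 4.

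Mx1 and Mx2 are dynamin-like GTPases that block the early steps of virus replication. Mx1 levels were 1.29, -0.58, -0.63 and -0.96 in untreated tissue, against -2.83, -1.99, -2.49 and -0.99 in sham tissue. The groups did not overlap, though only just, with untreated replicate 4 beside sham replicate 4, and untreated replicate 1 stood well above the rest. Mx1 rose by 1.85 ± 0.43 log2 units (adjusted p = 0.00392), by 1.35 without untreated replicate 1, and with the 2 groups fitted alone its adjusted p was 0.0516. With drug, Mx1 read -3.24, -3.25, -2.37 and -2.50 at the low dose, -0.95, -1.42, -1.05 and -1.03 at the high dose and -2.11, -1.74, -2.13 and -2.35 with omeprazole. The high-dose arrays were tight and lay above every low-dose and omeprazole array. Mx2 differed little between the groups: its mean was 2.17 ± 0.08 at the low dose (SD, n = 3), 2.58 ± 0.07 at the high dose, 2.43 ± 0.18 with omeprazole, 2.24 ± 0.32 untreated and 2.31 ± 0.13 in sham tissue (n = 4 each). The untreated minus sham difference of Mx2 was -0.06 ± 0.15 (adjusted p = 0.772), with a 95% interval of -0.38 to 0.25.

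Ifit2, a relative of Ifit3, also differed little between the groups. Its means were -2.85 ± 0.09 at the low dose (SD, n = 3), -2.27 ± 0.07 at the high dose, -2.22 ± 0.03 with omeprazole, -2.41 ± 0.46 untreated and -2.51 ± 0.16 in sham tissue (n = 4 each). The untreated minus sham difference was 0.09 ± 0.17 (adjusted p = 0.716), with a 95% interval of -0.27 to 0.46. Over the 19 samples Ifit2 spanned 1.12 and Mx2 0.69 log2 units, whereas Oas1a spanned 7.86 and Ifit3 6.5.

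Irf7 and Irf1 are transcription factors, Irf7 of type I interferon genes and Irf1 of many targets of interferon gamma. Irf1 levels were 3.12, 1.61, 1.49 and 1.76 in untreated tissue, against -0.15, 0.71, 0.44 and 1.20 in sham tissue. Every untreated array lay above every sham array, and untreated replicate 1 was far above the other untreated arrays. Irf1 rose by 1.44 ± 0.35 log2 units (adjusted p = 0.00531), and by 1.07 without untreated replicate 1 (adjusted p = 0.0167). It read -0.47, -0.53, 0.47 and 0.62 at the low dose, 1.27, 1.29, 1.60 and 1.98 at the high dose and 0.80, 0.68, 0.52 and 0.43 with omeprazole. High-dose values lay within the untreated range or just below it, and omeprazole values within the sham range.
Irf7 levels were 2.37, 0.63, -0.48 and 0.65 in untreated tissue, against -0.88, 0.04, -0.76 and 0.47 in sham tissue. These groups overlapped, and the difference of 1.07 ± 0.49 did not pass the test (adjusted p = 0.0996). It was 0.55 without untreated replicate 1. The drug groups read -1.65, -1.68, -0.82 and -0.24 at the low dose, 0.54, 0.04, 0.27 and 0.91 at the high dose and -1.11, -0.03, -0.02 and -0.25 with omeprazole.

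Igtp encodes an immunity-related GTPase that acts against intracellular parasites, a role known from the mouse. The high-dose and omeprazole groups had its highest means, as they did for Mx2 and Ifit2. Its log2 levels were 2.36, 2.18, 2.12 and 2.00 at the low dose, 2.89, 2.92, 3.15 and 3.18 at the high dose and 3.24, 2.83, 2.54 and 2.83 with omeprazole, against 2.61, 2.07, 1.86 and 2.17 untreated and 2.01, 1.73, 1.71 and 2.20 in sham tissue. All high-dose arrays lay above all untreated, low-dose and sham arrays, and 3 of the 4 omeprazole arrays did so too. Both groups lay on slide 3. The untreated minus sham difference of 0.27 ± 0.18 did not pass the test (adjusted p = 0.273).

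**Figure D1:**
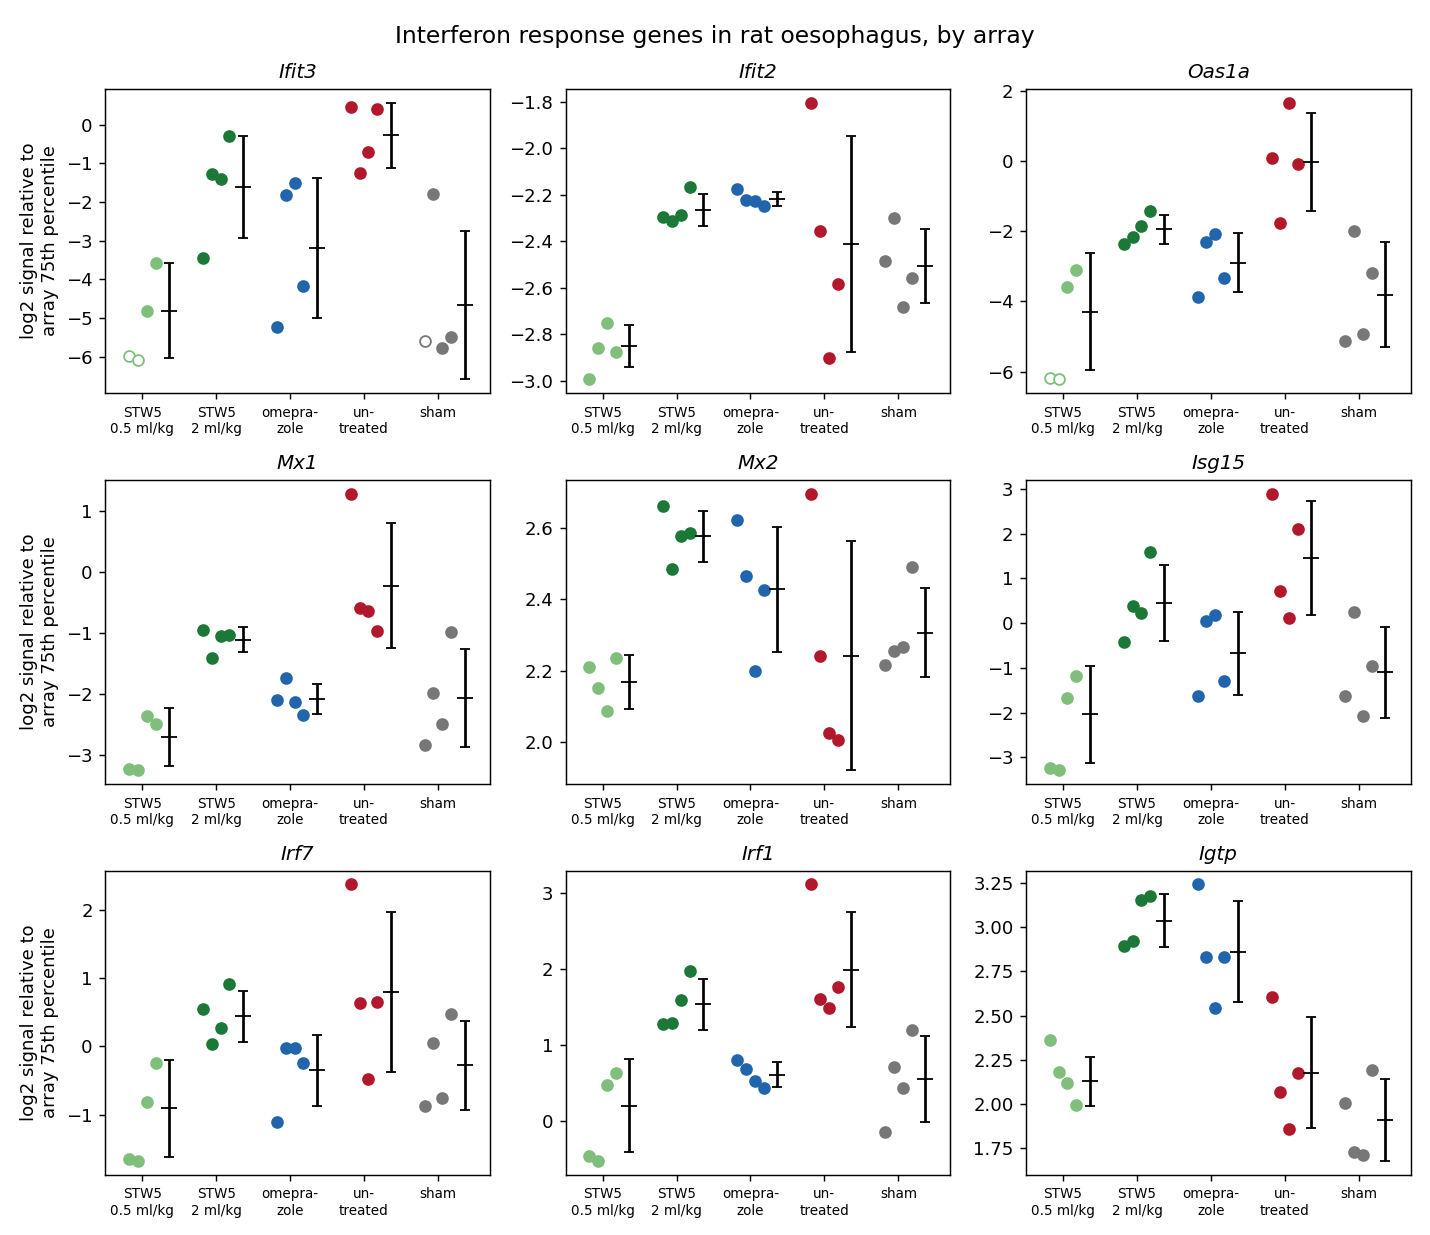
Log2 signal relative to the array 75th percentile (vertical axis, a separate scale for each gene) for the 9 genes in the 5 groups (horizontal axis). Points are arrays in replicate order, open where not well above background, and bars are mean ± SD over samples, with low-dose replicates 1 and 2 counted as 1. Ifit3, Oas1a, Mx1, Isg15, Irf7 and Irf1 have their highest group mean in untreated tissue, Igtp and Mx2 at the high dose, and Ifit2 with omeprazole.

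All untreated samples lay above all sham samples for 4 of the 9 genes (Ifit3, Oas1a, Mx1 and Irf1), which held in this direction for 11.7% of all genes. The order of the group means was the same for Ifit3, Oas1a and Isg15: untreated, high dose, omeprazole, sham and low dose, from high to low. Irf1 had this order as well, and Mx1 and Irf7 differed in that sham stood just above omeprazole. In these 6 genes the test separated no group from its neighbour in that order. Untreated replicate 1 was the highest untreated array for 8 of the 9 genes and high-dose replicate 4 the highest of its group for 7.

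Low-dose STW5 against untreated oesophagitis, the comparison within slide 2, asks what the herbal preparation did at its lower dose. 6 of the 9 genes fell: Ifit3, Oas1a, Isg15, Mx1, Irf1 and Irf7. By limma none rose, also at an unadjusted p under 0.05. Over all genes 15.9% fell and 21.7% rose, with a median difference of 0.17, beside -1.79 over the 9 genes.

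Ifit3 fell by 4.54 ± 1.05 log2 units (adjusted p = 0.00314) and Oas1a fell by 4.27 ± 0.85 (adjusted p = 0.00123). These sizes rest in part on low-dose signals near background, and with normexp correction Ifit3 fell by 2.75 and Oas1a fell by 2.64. Isg15 fell by 3.50 ± 0.73 (adjusted p = 0.0016), Mx1 fell by 2.48 ± 0.46 (adjusted p = 0.000759) and Irf1 fell by 1.79 ± 0.38 (adjusted p = 0.00171). In these 5 genes all low-dose samples lay below all untreated samples, which held in this direction for 15.3% of all genes. Irf7 fell by 1.70 ± 0.52 (adjusted p = 0.0178) with overlapping groups, and its adjusted p was 0.0526 without untreated replicate 1 and 0.0966 with the 2 groups fitted alone. Ifit2 differed by -0.44 ± 0.19 (adjusted p = 0.0751), Mx2 by -0.08 ± 0.16 (adjusted p = 0.736) and Igtp by -0.05 ± 0.19 (adjusted p = 0.866). Fitted on the arrays of slide 2 alone, 5 of the 9 genes fell, beside 10.1% of all genes in the same fit. Under the value table's labels these falls belong to the high dose.

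In high-dose STW5 against untreated oesophagitis 1 of the 9 genes passed the test: Igtp, which rose by 0.86 ± 0.18 log2 units (adjusted p = 0.00813). Over all genes 5.13% rose and 4.37% fell. By limma none of the 6 genes that fell at the low dose passed here, and 1 of them, Oas1a, had an unadjusted p under 0.05. The largest of these differences were -1.93 ± 0.79 for Oas1a (adjusted p = 0.123, 95% interval -3.60 to -0.26) and -1.33 ± 0.97 for Ifit3 (adjusted p = 0.388, 95% interval -3.38 to 0.72). Mx1 differed by -0.89 ± 0.43 (adjusted p = 0.183), Isg15 by -1.01 ± 0.67 (adjusted p = 0.343) and Irf1 by -0.46 ± 0.35 (adjusted p = 0.411). These intervals leave room for falls of several log2 units in Oas1a and Ifit3. Irf7 differed by -0.35 ± 0.49, Ifit2 by 0.15 ± 0.17 and Mx2 by 0.33 ± 0.15, with adjusted p of 0.667, 0.612 and 0.153. With normexp background correction Oas1a also passed, at -1.68 (adjusted p = 0.0271).

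In omeprazole against untreated oesophagitis 5 of the 9 genes fell, Ifit3, Oas1a, Isg15, Mx1 and Irf1, and Igtp rose. Over all genes 12.2% fell and 15.6% rose. Mx1 fell by 1.86 ± 0.43 log2 units (adjusted p = 0.00485), Irf1 fell by 1.39 ± 0.35 (adjusted p = 0.00831) and Oas1a fell by 2.88 ± 0.79 (adjusted p = 0.013). Ifit3 fell by 2.91 ± 0.97 (adjusted p = 0.0346) and Isg15 fell by 2.13 ± 0.67 (adjusted p = 0.0268), each with the omeprazole arrays split into 2 high and 2 low values. Neither of these last 2 passed without untreated replicate 1 (adjusted p of 0.0847 for Ifit3 and 0.0921 for Isg15), untreated replicate 4 (0.0795 and 0.07), omeprazole replicate 1 (0.114 and 0.0811) or omeprazole replicate 4 (0.0955 and 0.0761). Ifit3 also missed the threshold without untreated replicate 3 (adjusted p = 0.0546), and Isg15 and Igtp with the 2 groups fitted alone (adjusted p of 0.0541 and 0.0548). Igtp rose by 0.69 ± 0.18 (adjusted p = 0.00999), Irf7 differed by -1.15 ± 0.49 (adjusted p = 0.088), Ifit2 by 0.19 ± 0.17 and Mx2 by 0.19 ± 0.15. The 3 drug comparisons share the untreated arrays.

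**Figure D2:**
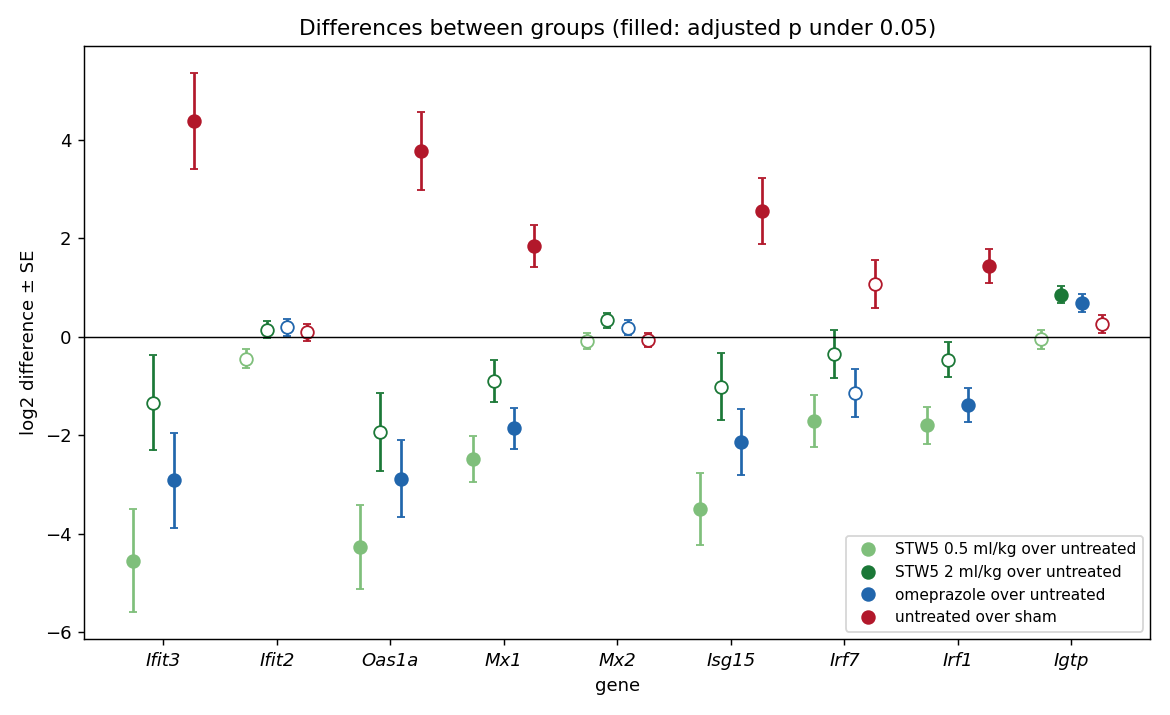
Log2 difference (vertical axis) with its SE for each of the 9 genes (horizontal axis) in 4 comparisons: low-dose STW5, high-dose STW5 and omeprazole, each over untreated, and untreated over sham. Filled points have an adjusted p under 0.05. Ifit3 and Oas1a have the largest differences in both directions, and Igtp alone is filled above 0 with the high dose and with omeprazole.

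The doses differed from each other directly. High-dose minus low-dose STW5 was positive for all 9 genes, and in all 9 the high-dose samples lay above the low-dose samples, which held in this direction for 15.2% of all genes. 6 of the 9 genes were higher at the high dose by the test: Ifit3 by 3.21 ± 1.05 log2 units (adjusted p = 0.0361), Isg15 by 2.49 ± 0.73 (adjusted p = 0.0224), Mx1 by 1.59 ± 0.46 (adjusted p = 0.0213), Irf1 by 1.34 ± 0.38 (adjusted p = 0.0193), Igtp by 0.91 ± 0.19 (adjusted p = 0.00554) and Ifit2 by 0.59 ± 0.19 (adjusted p = 0.0331). Over all genes 10.7% were higher and 13.2% lower at the high dose, with a median of -0.15, beside 1.35 over the 9 genes. Oas1a, Irf7 and Mx2 differed by 2.34 ± 0.85, 1.35 ± 0.52 and 0.41 ± 0.16, with adjusted p of 0.0555, 0.069 and 0.0706. The doses lay on different slides, and the sign turns for all 9 genes under the value table's dose labels. In the same comparison 9 of 10 macrophage markers were higher and 5 of 9 squamous epithelium markers lower at the high dose. Their part in these differences was not tested. With normexp correction Ifit2 did not pass (0.26, adjusted p = 0.117), Mx2 passed (0.44, adjusted p = 0.0228), and Ifit3 and Mx1 were 1.62 and 1.03. Without high-dose replicate 4 the test called 2 of the 9 genes (Mx1 and Igtp), and without low-dose replicate 3 it called 3, the same 2 and Irf1. Ifit3 missed the threshold without high-dose replicate 2 or 3 as well (adjusted p of 0.0702 and 0.0725). Ifit2 missed it without any 1 of the 4 high-dose arrays or of low-dose replicates 3 and 4, with adjusted p of 0.0528 to 0.0759.

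Against sham, low-dose STW5 had no gene of the 9 past limma's adjusted threshold and none at an unadjusted p under 0.05, where 0.00735% of all genes were called. High-dose STW5 had 1, Igtp, which rose by 1.13 ± 0.18 log2 units (adjusted p = 0.00102), beside 6.05% of all genes that rose. The count was 2 without sham replicate 2 or high-dose replicate 1, 3 without sham replicate 4, 0 with the mean of all probes and 9 with array weights, where 52.2% of all genes were called. Ifit3 was 3.06 ± 0.97 above sham at the high dose without passing (adjusted p = 0.0597). All 9 genes were higher at the high dose than in sham tissue, with a median difference of 0.99. By limma 6 of the 9 had an unadjusted p under 0.05 there, beside 26.8% of all genes. In omeprazole against sham 1 gene was called, again Igtp, which rose by 0.95 ± 0.18 (adjusted p = 0.00594, and 0.0722 with the 2 groups fitted alone), beside 1.55% of all genes. Its unadjusted p was under 0.05, as for 10.9% of all genes, and this held for no other of the 9.
Between the drugs, none of the 9 genes passed limma's test in high-dose STW5 against omeprazole, the comparison within slide 3, where 0.221% of all genes were called. An unadjusted p under 0.05 was found for 2 of the 9 and for 17.9% of all genes. Fitted on the arrays of slide 3 alone, 2 of the 9 were called, beside 8.63% of all genes. In low-dose STW5 against omeprazole none passed by limma, beside 2.41% of all genes, and 2 of the 9 and 20.6% of all genes had an unadjusted p under 0.05.

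The level of Igtp depended on the probe. Its value above comes from the probe with the highest mean signal, A_64_P058492. In a fit over all probes, this probe was 0.86 ± 0.18 above untreated at the high dose and 0.69 ± 0.18 with omeprazole. Probe A_64_P092170 gave -0.15 ± 0.46 and -0.79 ± 0.46 in the same comparisons, and fell by 1.53 ± 0.49 at the low dose against untreated (adjusted p = 0.0253). Probe A_44_P179956 gave 0.28 ± 0.42 and -0.51 ± 0.42. With the mean of the 3 probes Igtp was not called in any comparison with untreated or sham. The 2 Irf1 probes had the same sign in all 4 comparisons shown, although the probe not used was above background on 12 of 20 arrays. In the fit over all probes, that probe passed at the low dose against untreated (-2.19 ± 0.54, adjusted p = 0.00539). It did not pass in untreated against sham (1.12 ± 0.50, adjusted p = 0.104) or in omeprazole against untreated (-0.68 ± 0.50, adjusted p = 0.327).

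**Figure D3:**
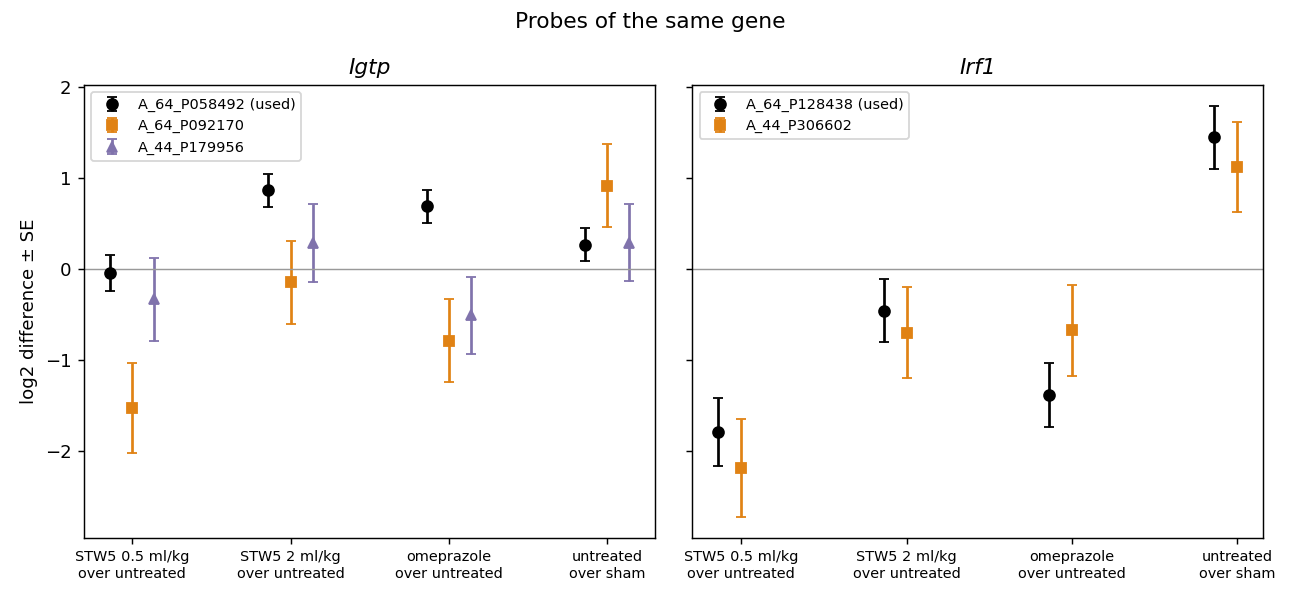
Log2 difference (vertical axis) with its SE for the 3 probes of Igtp and the 2 probes of Irf1 in 4 comparisons (horizontal axis). The Igtp probe used is alone in lying more than 0.5 above 0 with the high dose and with omeprazole, whereas the Irf1 probes lie on the same side of 0 in each comparison.

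The pathway around the 9 genes was described by 6 further lists with 83 genes measured out of 116. Their counts stand beside the shares of all genes given above: 21.7% higher and 15.9% lower at the low dose, 5.13% and 4.37% at the high dose and 15.6% and 12.2% with omeprazole, each against untreated, and 15.0% and 17.9% in untreated tissue against sham. Without sham replicate 2 the counts in untreated tissue were the same for the receptors, the signalling genes and the sensors, and became 14 higher of 34 type I effectors and 15 of 25 interferon gamma effectors. Of the interferon genes themselves only Ifna4 was measured, and by limma it passed in none of the 10 comparisons. It had an unadjusted p under 0.05 in 4 of them, each a slide 3 group above untreated or sham. Ifng, Ifnb1, Ifnk and Ifne were not well above background on any of the 20 arrays. Among the 4 receptor chains measured, all 4 rose in untreated tissue against sham: Ifnar1 by 1.51 ± 0.31 log2 units, Il10rb by 0.98 ± 0.16, Ifngr1 by 0.91 ± 0.24 and Ifngr2 by 0.87 ± 0.21. Against untreated, 3 of the 4 chains fell at the low dose, 2 at the high dose and all 4 with omeprazole. Ifngr2, the signalling chain of the interferon gamma receptor, fell by 0.99 ± 0.21 at the high dose and fell by 1.08 ± 0.21 with omeprazole, and Ifnar1 fell by 1.79 ± 0.33 at the low dose.

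Of the 9 genes measured for signalling downstream of the receptors and for other Irfs, 3 rose in untreated tissue. Irf5, which drives cytokine genes in myeloid cells, rose by 1.19 ± 0.19, Jak2 by 1.23 ± 0.27 and Stat2 by 0.52 ± 0.17. Against untreated, Irf5 fell with each drug, by log2 differences of -1.22 ± 0.20 at the low dose, -0.94 ± 0.19 at the high dose and -1.45 ± 0.19 with omeprazole. Jak2 also fell with each, with differences of -0.93 ± 0.29 at the low dose, -0.88 ± 0.27 at the high dose and -1.14 ± 0.27 with omeprazole. In the list as a whole 2 rose and 2 fell at the low dose, 2 fell at the high dose, and 1 rose and 3 fell with omeprazole. At the low dose these counts are near the shares of all genes.

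Of the 10 nucleic acid sensors and adaptors, 3 rose and 1 fell in untreated tissue. Tlr7, the endosomal receptor for single-stranded RNA, was not well above background on any sham array and was at least 6.25-fold higher in untreated tissue (adjusted p = 9.02e-05). Such a fold sets the bright group against the lowest signals well above background. A gene given this way passed the filter on dim probes through the groups where it was bright. Its direction is thus partly set by the filter, for Tlr7 here and for Oasl and Lap3 below. The adjusted p of Tlr7 is no independent support for that direction. Sting1, the adaptor of cytosolic DNA sensing, rose by 1.40 ± 0.26, Dhx58, a regulator of RNA sensing, by 1.71 ± 0.48, and Mavs, the mitochondrial adaptor, fell by 0.78 ± 0.20. Against untreated, Sting1 fell with each drug, with differences of -1.64 ± 0.28 at the low dose, -0.86 ± 0.26 at the high dose and -1.53 ± 0.26 with omeprazole. Tlr7 was at least 5.58-fold lower at the low dose and at least 7.81-fold lower with omeprazole, and fell by 1.5 ± 0.35 log2 units at the high dose. In the list, 5 fell and 2 rose at the low dose, where 2 of 10 is near the share of all genes that rose, and 2 fell at the high dose and 2 with omeprazole.

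Of 34 other type I effectors, 12 rose and 1 fell in untreated tissue, with a list median of 0.54. Ifitm1, which blocks virus entry at membranes, rose by 3.12 ± 0.46, its relative Ifitm2 by 1.23 ± 0.20 and Slfn2, which holds T cells and monocytes quiescent in the mouse, by 2.28 ± 0.32. Oasl was not well above background on any sham array and was at least 6.81-fold higher in untreated tissue. Against untreated, 16 of the 34 fell and 1 rose at the low dose, 2 fell at the high dose and 10 fell with omeprazole. At the high dose 2 of 34 is near the share of all genes that fell (4.37%). Slfn2 fell with each drug, with differences of -2.31 ± 0.35 at the low dose, -1.15 ± 0.32 at the high dose and -2.08 ± 0.32 with omeprazole. Ifitm2 fell by 1.48 ± 0.21 at the low dose and fell by 1.18 ± 0.20 with omeprazole, and Oasl was at least 6.28-fold lower at the high dose. Between the doses, 14 of the 34 were higher at the high dose, beside 10.7% of all genes. The doses lay on different slides, and they change places under the value table's labels.

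Of 25 other effectors of interferon gamma, 14 rose in untreated tissue, with a list median of 1.14. Nos2, the inducible nitric oxide synthase, rose by 2.73 ± 0.44, the adhesion molecule Icam1 by 2.44 ± 0.32, the lysosomal thiol reductase Ifi30 by 1.96 ± 0.25 and the immunoproteasome subunit Psmb9 by 1.44 ± 0.30. Against untreated, 17 fell and 1 rose at the low dose, 5 fell and 1 rose at the high dose, and 11 fell and 1 rose with omeprazole. At the high dose 1 of 25 is near the share of all genes that rose (5.13%). Icam1 fell by 2.63 ± 0.35 and Ifi30 fell by 2.00 ± 0.27 at the low dose, Nos2 fell by 1.95 ± 0.44 at the high dose, and Ifi30 fell by 1.82 ± 0.25 with omeprazole. Lap3, an aminopeptidase, was not well above background on any untreated array and was at least 6.18-fold higher at the high dose and at least 3.47-fold higher with omeprazole, where it was above background on 3 of 4 arrays. Both of these groups lay on slide 3, as with Igtp.

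**Figure D4:**
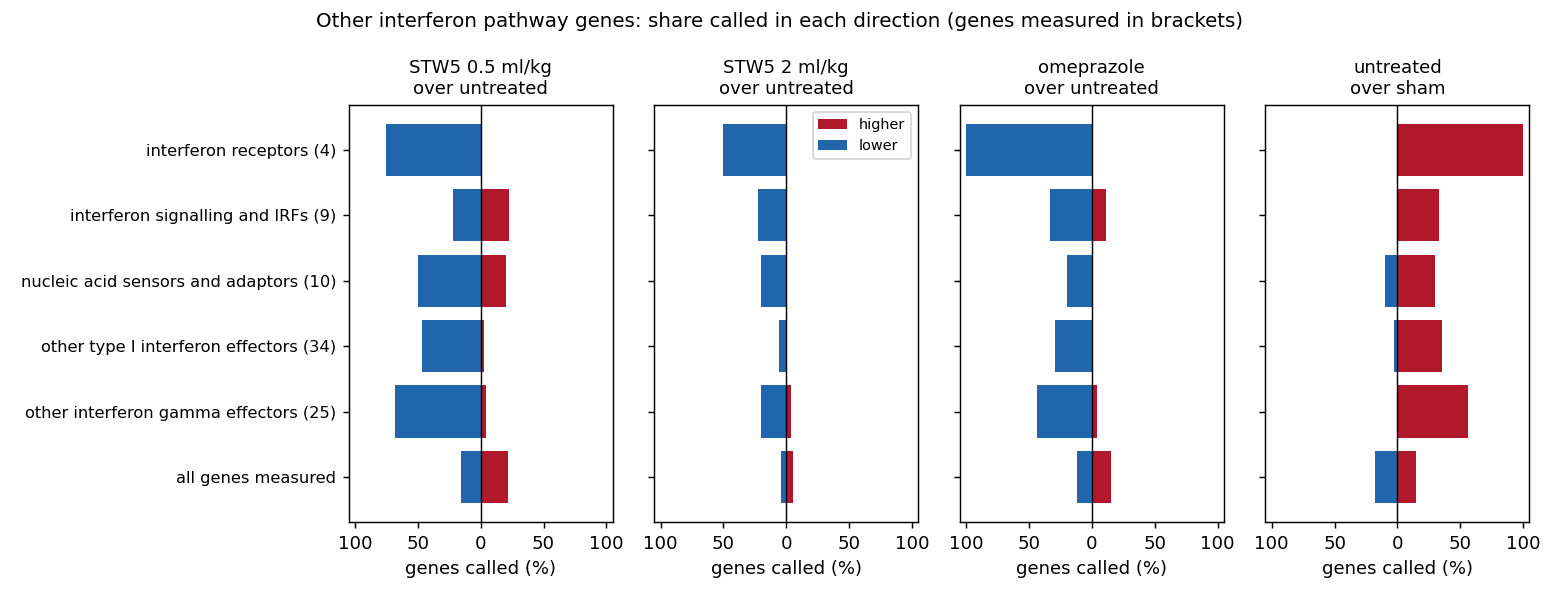
Percent of the measured genes of 5 pathway lists, and of all genes, called higher (right of 0) or lower (left of 0) in 4 comparisons: low-dose STW5, high-dose STW5 and omeprazole over untreated, and untreated over sham. The number of genes measured stands in brackets. The bars for interferon gamma effectors reach 14 of 25 higher in untreated over sham and 17 of 25 lower in low-dose STW5 over untreated.

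Markers of cell types moved in untreated tissue against sham and in each drug against untreated. In omeprazole against sham, where Igtp was called, no marker of these lists was. Igtp was called in high-dose STW5 against sham as well, where 7 of 10 macrophage markers and 1 of 8 T and NK cell markers rose. There 1 of 5 plasmacytoid dendritic cell markers and 1 of 10 striated muscle markers fell, and no neutrophil or squamous marker was called. Over all genes 6.05% rose and 2.49% fell in that comparison. The marker counts below stand beside the shares of all genes given for the pathway lists. All 10 macrophage markers rose in untreated tissue against sham, and against untreated all 10 fell at the low dose, 3 at the high dose and all 10 with omeprazole. The mean log2 level of the 10 markers ran from -2.25 to -0.51 over low-dose arrays, 0.19 to 1.21 over high-dose arrays, -0.88 to -0.11 with omeprazole, 1.47 to 2.69 untreated and -1.84 to -0.05 in sham tissue. Within sham, the highest of these values was that of replicate 2. At least 8 of the 10 were above background on each array, so none of the list was absent from a group.
Of 8 neutrophil markers, 5 rose in untreated tissue, and against untreated 3 fell at the low dose, 2 at the high dose and 3 with omeprazole. Their mean level ran from -5.07 to -2.81 over low-dose arrays, -3.21 to -1.91 over high-dose arrays, -4.80 to -2.15 with omeprazole, -2.20 to 0.36 untreated and -5.29 to -2.07 in sham tissue. Elane and Ltf, defining granule genes, were well above background on 1 array at most. Of 8 T and NK cell markers, 7 rose in untreated tissue, and 5 fell at the low dose and 3 with omeprazole. They ran from -5.74 to -4.95 at the low dose, -4.76 to -3.77 at the high dose, -5.35 to -4.19 with omeprazole, -4.32 to -1.46 untreated and -6.13 to -4.44 in sham tissue.

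Of 5 markers of plasmacytoid dendritic cells, the specialised makers of type I interferon, 2 rose and 1 fell in untreated tissue against sham. Over all genes 15.0% rose and 17.9% fell there, so 1 of 5 falling is near that share. Against untreated, 1 rose and 3 fell at the low dose, 1 fell at the high dose, and 1 rose and 2 fell with omeprazole. A rise of 1 in 5 is near the shares of all genes at the low dose (21.7%) and with omeprazole (15.6%). Siglech, their defining marker, was well above background on 2 of 20 arrays, and neither it nor Clec4c was among the 5 measured. Markers of epithelium and muscle moved too: 4 of 9 squamous epithelium markers and 6 of 10 striated muscle markers fell in untreated tissue. Against untreated, 6 of each list rose at the low dose and 3 muscle markers at the high dose. With omeprazole, 5 squamous and 4 muscle markers rose against untreated. Without sham replicate 2, 8 T and NK cell markers rose and 3 squamous and 7 muscle markers fell in untreated tissue, and the other marker counts were the same. The part of these cell types in the values of the 9 genes was not tested.

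**Figure D5:**
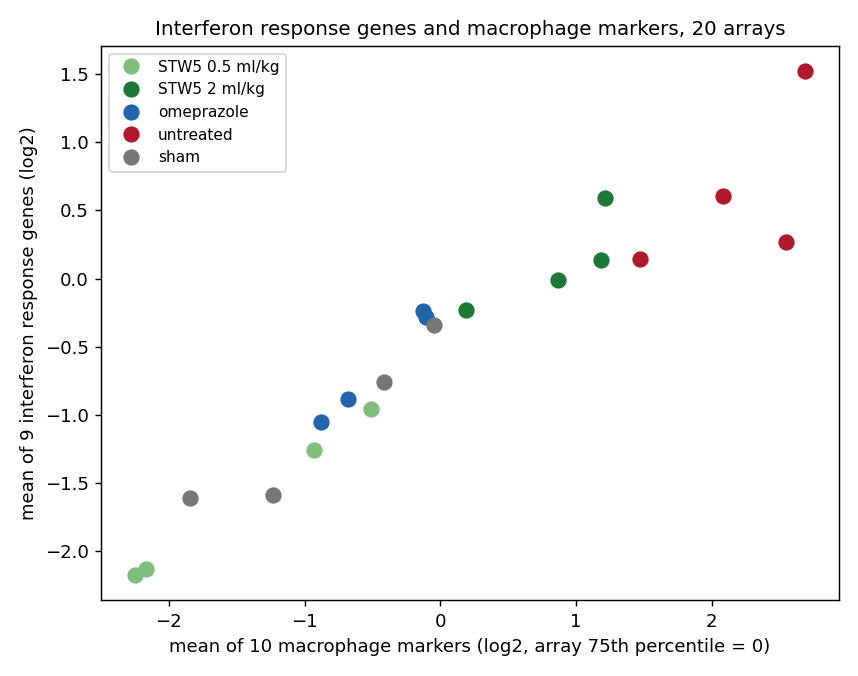
Mean log2 level of the 9 interferon response genes (vertical axis) against the mean of 10 macrophage markers (horizontal axis), 1 point per array, coloured by group. The 4 untreated arrays lie at the right (1.47 to 2.69 for the markers), the low-dose pair at the lower left, and sham replicate 2 beside 2 omeprazole arrays.

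The 9 genes did not vary alike. Over the 19 samples, which share scaling and slides, the correlation of a gene with the mean of the other 8 was 0.96 for Isg15, 0.92 for Irf1, 0.88 for Ifit3, 0.87 for Mx1, 0.85 for Irf7 and 0.84 for Oas1a. It was 0.55 for Ifit2, 0.28 for Mx2 and 0.24 for Igtp. Among these last genes the correlation was 0.76 for Igtp with Mx2, 0.74 for Ifit2 with Mx2 and 0.63 for Igtp with Ifit2. The genes outside the 9 that followed their mean most closely were Oasl2 (r = 0.988), Septin6 (0.971), Lxn (0.971), Evi2a (0.966), Il2rg (0.965) and Lcp2 (0.964), as a description over the same 19 samples.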

How the data were processed

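Oesophagus RNA from 20 samples was hybridised, labelled with Cy3, to 1-colour Agilent rat arrays. The authors deposited the scanner output of each array, made with Agilent Feature Extraction 10.7.3.1 per the file headers, whose processed signal is a background-corrected intensity. They also deposited a value table, a ratio of each array's processed signal to its median as a comparison with the scanner files shows, and 8 of its columns carry the other STW5 dose.

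Control spots and outlier flags were left out, spots of a probe were averaged, and log2 signals were taken minus the 75th percentile of each array. Probes were kept with 50% or more of their spots well above background, on 4 or more arrays, and a gene was read by its kept probe with the highest mean. Names were updated through RefSeq accessions. Low-dose replicates 1 and 2 were averaged. Group means were fitted for all 5 groups together with limma 3.58.1 in R 4.3.3, and p-values were adjusted over 13597 genes in each of 10 comparisons. With so few arrays, their number limits the precision. The p-values set each difference against the spread between samples of a group, which holds no difference between slides.

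The 9 genes and all lists were chosen with earlier results of these data known, so their direction is no independent evidence. From each pathway list, up to 4 called genes with the smallest p are named for untreated against sham and up to 2 for each drug against untreated. Alternatives were quantile scaling, normexp background correction with an offset of 50, no filter, the mean of all probes, all 20 arrays as samples, a replicate block, the compared groups alone, array weights, the value table, a floor on dim signals, and each array left out.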

Additional observations from a re-analysis of the deposited data

Results flagged for a closer look

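In 36 sets of 4 arrays (9 genes in the high-dose, omeprazole, untreated and sham groups), 4 held an array whose distance from the nearest other exceeded the 95% limit of Dixon's test as a share of the range. Chance alone marks about 1 in 20 such sets. Ifit3 in sham replicate 2 was the highest of its group at -1.79, with the nearest array at -5.50. Mx1 in untreated replicate 1 was the highest of its group at 1.29, with the nearest at -0.58. Irf1 in untreated replicate 1 was likewise the highest at 3.12, with the nearest at 1.76. Ifit2 in high-dose replicate 4 was the highest of its group at -2.17, with the nearest at -2.29, in a group whose values were all close.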

How the results depend on the processing

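Of the 9 genes, 5 were called in untreated against sham, and 5 to 6 when an array was left out. The calls in low-dose STW5 against untreated ranged from 5 to 7 when an array was left out, and those in omeprazole against untreated from 4 to 6. High-dose against low-dose STW5 gave 2 to 7, with 3 without low-dose replicate 3 and 2 without high-dose replicate 4. High-dose STW5 against untreated gave 1 to 2, with 2 without untreated replicate 1 or 2. High-dose STW5 against sham gave 1 to 3, with 2 without sham replicate 2 or high-dose replicate 1 and 3 without sham replicate 4. Low-dose STW5 against omeprazole gave 0 to 1, with 1 without low-dose replicate 1. Omeprazole against sham stayed at 1 and low-dose STW5 against sham and high-dose STW5 against omeprazole at 0 in these repeats.

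Array weights moved several counts: to 9 in high-dose STW5 against sham, 5 in omeprazole against sham, 4 in low-dose STW5 against omeprazole, 2 in high-dose STW5 against omeprazole and 1 in low-dose STW5 against sham. All genes gained calls too, to 52.2%, 26.2%, 20.1%, 16.6% and 19% in these comparisons. With the compared groups fitted alone the count was 2 in high-dose STW5 against omeprazole and 0 in omeprazole against sham. With the mean of all probes it was 0 in high-dose STW5 against untreated, 0 against sham, and 0 in omeprazole against sham. Normexp gave 2 in high-dose STW5 against untreated, and 1 in low-dose STW5 against omeprazole, as did quantile scaling, and all 20 arrays as samples gave 2 there. The cause was not tested. With normexp, Ifit3 was 2.66 and Oas1a 2.53 log2 units above sham in untreated tissue, and both still passed.

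The value table, with its exchanged doses, gave 6 genes lower in high-dose STW5 against untreated, 1 higher in low-dose STW5 against untreated, 1 in low-dose STW5 against sham and 0 in high-dose STW5 against sham. High minus low dose turned negative in it for every gene: Ifit3 -3.08, Ifit2 -0.46, Oas1a -2.21, Mx1 -1.46, Mx2 -0.28, Isg15 -2.36, Irf7 -1.22, Irf1 -1.21 and Igtp -0.78. In the same table the sign also turned for Ifit2 in high-dose (-0.34) and low-dose STW5 (0.12), Igtp in low-dose STW5 (0.83) and Mx2 in low-dose STW5 (0.30), each against untreated.

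Igtp with omeprazole against untreated, called in the report, was -0.21 with the mean of all probes. Outside the value table, the other signs that turned belonged to differences that were not called. Igtp in low-dose STW5 against untreated ranged from -0.15 to 0.0956 over left-out arrays, turning without untreated replicate 1 or low-dose replicate 4, and was 0.0225 with array weights. Mx2 in the same comparison ranged from -0.15 to 0.0763, turning without untreated replicate 1. In high-dose STW5 against untreated, Ifit2 ranged from -0.0171 (without untreated replicate 3) to 0.35 and Irf7 from -0.78 to 0.17 (without untreated replicate 1). In untreated against sham, Ifit2 ranged from -0.11 (without untreated replicate 1) to 0.26. Mx2 there ranged from -0.22 to 0.0141, turning without untreated replicate 3 or 4, and was 0.0173 with quantile scaling.

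Deviations of same-numbered arrays in different groups had a mean correlation of 0.07 over 40 pairs, with 19 over 0.1, against -0.02 over 120 pairs of other numbers, with 33 over 0.1. As not every pair was over 0.1, the numbers were not taken to pair the samples. A rule that asks this of every pair is hard to meet, so it cannot exclude a pairing. With the replicate block and all 20 arrays, 2 genes were called in low-dose STW5 against omeprazole, 9 in high-dose against low-dose STW5 and 7 in low-dose STW5 against untreated. Array signal limits what can be said of Ifit3 and Oas1a, whose lowest values lay near background.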
